A study of Homo sapiens with 6 samples.

Results

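The actin cytoskeleton was followed through 51 named genes, which were chosen with earlier results of these data known. They cover actins, filament crosslinkers, tropomyosins, non-muscle myosin II, calponins and transgelins, and turnover and capping factors. Adhesion proteins, the ezrin-radixin-moesin (ERM) linkers, the Arp2/3 complex and the transcription factor SRF are also included. All 51 were found by symbol among the 58174 genes of the series table. RNA was sequenced from 3 samples of cells labelled Huh-7, a hepatocellular carcinoma line, that received miR-27a-3p mimics, short synthetic RNA duplexes that act as the mature microRNA, and from 3 samples of the same label that received a negative control (NC). Both groups were transfected with a lipid reagent and taken 48 h later by trypsin digestion, so the cells had been detached before RNA was extracted. No drug is named in the labels, although the series asks about cisplatin sensitivity. Whether samples of 1 group are separate cultures is not stated, and every p-value below reflects their spread alone, which may be technical.

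Actin monomers assemble into polar filaments that are nucleated by the Arp2/3 complex and formins, supplied with monomer by profilin, cut by cofilin, capped at their growing ends, bundled by alpha-actinin and filamin, coated by tropomyosin and pulled by myosin II. The filaments are anchored to the membrane by ERM proteins and to the matrix through talin, vinculin and zyxin. Many of these genes are known targets of SRF, whose coactivator MRTF-A is held back by free actin monomer.

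The labelled cell type was checked against its defining markers. None of 9 hepatocyte markers averaged 1 FPKM (fragments per kilobase of transcript, scaled to the library's total), and together they summed to 0.912 to 1.27 FPKM in mimic samples and 1.085 to 2.11 FPKM in NC samples. ALB was listed at 0 in 5 of the 6 samples, APOB and TTR in all 6, and AFP did not pass 0.0237 FPKM in any. These markers of the labelled cell type were thus at or near 0 in both groups, and the samples are called by their transfection below. Markers of simple epithelium summed to 767.5 to 1066 FPKM in mimic samples and 480.1 to 536.1 FPKM in NC samples, nearly all of it from KRT8, KRT18 and KRT19, while EPCAM and CDH1 stayed under 0.219 FPKM. Squamous markers summed to at most 0.219 FPKM in mimic samples and 0.842 FPKM in NC samples, and endothelial markers to at most 0.823 FPKM in mimic samples and 2.91 FPKM in NC samples. Of 7 fibroblast markers COL1A1 alone averaged 1 FPKM, and the list summed to 7.73 to 10.47 FPKM in mimic and 17.7 to 18.3 FPKM in NC samples. Of 7 muscle markers SMTN alone did so, and the list summed to 13.0 to 13.7 FPKM in mimic and 9.40 to 11.3 FPKM in NC samples. CD68 was the only one of 5 leukocyte markers to do so, with list sums of 11.3 to 19.5 FPKM in mimic and 8.73 to 10.7 FPKM in NC samples. The part of these markers in the results below was not tested.

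Read numbers are not given. Multiplied by transcript length, low FPKM values of a sample gathered at a single step, which, taken as 1 fragment, implies 25300000 to 31300000 fragments in mimic samples and 17100000 to 21300000 in NC samples. Higher values were mostly not whole multiples of that step, so these depths are rough. Mitochondrial genes held 14.6%, 24.3% and 38.9% of summed FPKM in mimic samples 1, 2 and 3, and 16.9%, 18.4% and 32.8% in NC samples 1, 2 and 3. Sample 3 was the highest of both groups, and calls lost without it are given below. At 1 FPKM or more, 13007 to 13250 genes were found in mimic samples and 15109 to 15494 in NC samples, so the groups stood apart, and the part of this difference in the results below was not tested.

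Sequences that bear on the members are given first, since the transfected agent is a microRNA and several members are controlled by SRF. The mimic carries the sequence of miR-27a-3p, which RefSeq places at chr19:13836447-13836467 on the minus strand (GRCh38.p14), with its seed, bases 2 to 8, in capitals:
hsa-miR-27a-3p: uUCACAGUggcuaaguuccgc

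Seed matches were looked for in 1 3' UTR per gene, the longest in GENCODE 29 (GRCh38), as the 8mer ACTGTGAA, the 7mer-m8 ACTGTGA and the 7mer-A1 CTGTGAA, on the transcribed strand and counting each position once under its longest class. The longest UTR can belong to a minor transcript. Of the 48 members that were tested, 11 (22.9%) held a match of any class, against 28.9% of the 11463 tested genes with a UTR, and 2 (4.17%) held an 8mer, against 6.55%. The median log2 fold change was 0.52 in the 11 members with a match and 0.43 in the 37 without. Over all tested genes with a UTR the order was the other way, at -0.27 in the 3309 with a match and -0.13 in the 8154 without. Both are descriptions with no test. The matches below are shown because they lie in the member that fell most, in the 2 tested members with an 8mer and in 2 members that rose more than 2-fold, with the match in capitals:
PDLIM5 at chr4:94666872-94666900, plus strand: aacagttaatcCTGTGAAataaatattga
ACTA2 at chr10:88935169-88935198, minus strand: tctagcacacaACTGTGAAtgtcctgtgga
MYH10 at chr17:8475258-8475287, minus strand: tcagtgagcaaACTGTGAAaggggctttgg
MYH9 at chr22:36282552-36282580, minus strand: tcttgggactgCTGTGAAcatgcctcctc
MSN at chrX:65741676-65741704, plus strand: tgtgtgcattgCTGTGAAttagctcactt

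SRF binds the CArG box, a run of 6 A or T letters between a pair of C and a pair of G, which reads the same way on both strands. Promoter windows of 250 bases before to 50 bases after a start were taken from RefSeq (GRCh38.p14). Windows were found for 46 members, 77 in all. Many members are known SRF targets and SRF is itself a member, so the choice of genes favours boxes in their windows. A box stood in 7 of these 77 windows (9.09%), in 7 genes, against 1.11% of the 14540 windows of tested genes and 1.29% of all 35116. They are shown because the genes that carry them moved in both directions or not at all, with the box in capitals:
ACTG1 at chr17:81512874-81512903, minus strand: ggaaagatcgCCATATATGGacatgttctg
FLNA at chrX:154374709-154374738, minus strand: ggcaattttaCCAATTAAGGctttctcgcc
ACTN1 at chr14:68977718-68977747, minus strand: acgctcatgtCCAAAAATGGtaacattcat
TPM4 at chr19:16067355-16067384, plus strand: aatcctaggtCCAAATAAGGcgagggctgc
CNN2 at chr19:1026509-1026538, plus strand: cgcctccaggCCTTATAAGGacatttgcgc
MYLK at chr3:123620623-123620652, minus strand: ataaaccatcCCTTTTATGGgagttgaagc
SRF at chr6:43171229-43171258, plus strand: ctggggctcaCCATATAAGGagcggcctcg
SRF at chr6:43171249-43171278, plus strand: agcggcctcgCCATAAAAGGaaacattgta

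Of these 7 genes ACTG1, FLNA and ACTN1 rose, TPM4 fell, and CNN2, MYLK and SRF were not called, as described below. A match is a description of the letters and not evidence of binding.

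Most of the members that changed were higher in mimic samples. Genes averaging at least 1 FPKM were tested with limma on log2(FPKM + 0.5), which left out CNN1 and CNN3, of the calponin family, and FLNC, a muscle filamin, all 3 at most 0.122 FPKM in every sample. Of the 48 members tested, 22 rose (45.8%), 5 fell (10.4%) and 21 were not called at an adjusted p of 0.05. Over all 14439 genes tested 12.0% were called higher and 39.6% lower, and over the 1322 genes at or above the members' median level of 50.5 FPKM these shares were 26.4% and 17.6%. The median log2 fold change, mimic minus NC, was 0.44 in the members and -0.29 in all genes. Because the members were chosen with earlier results of these data known, these comparisons with all genes are descriptions and not independent support. Without sample 3 of both groups 14 members were called higher and 5 lower. The share of all genes called in that smaller fit is not given here, so the drop is not read as particular to the members.

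FPKM is relative to the library, and the direction of small changes depends on the scale. Median-of-ratios scaling over genes averaging 1 FPKM, chosen after seeing the data, brought the median of all genes to 0.02, and then 29 members were higher and 4 lower, against 27.2% and 26.9% of all genes. Scaling over every gene above 0 brought it to 0.18, with 35 members higher and 2 lower, against 35.6% and 20.9%. Bulk values cannot tell a change in the number of cells of a type from a change in RNA per cell.

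**Figure D1:**
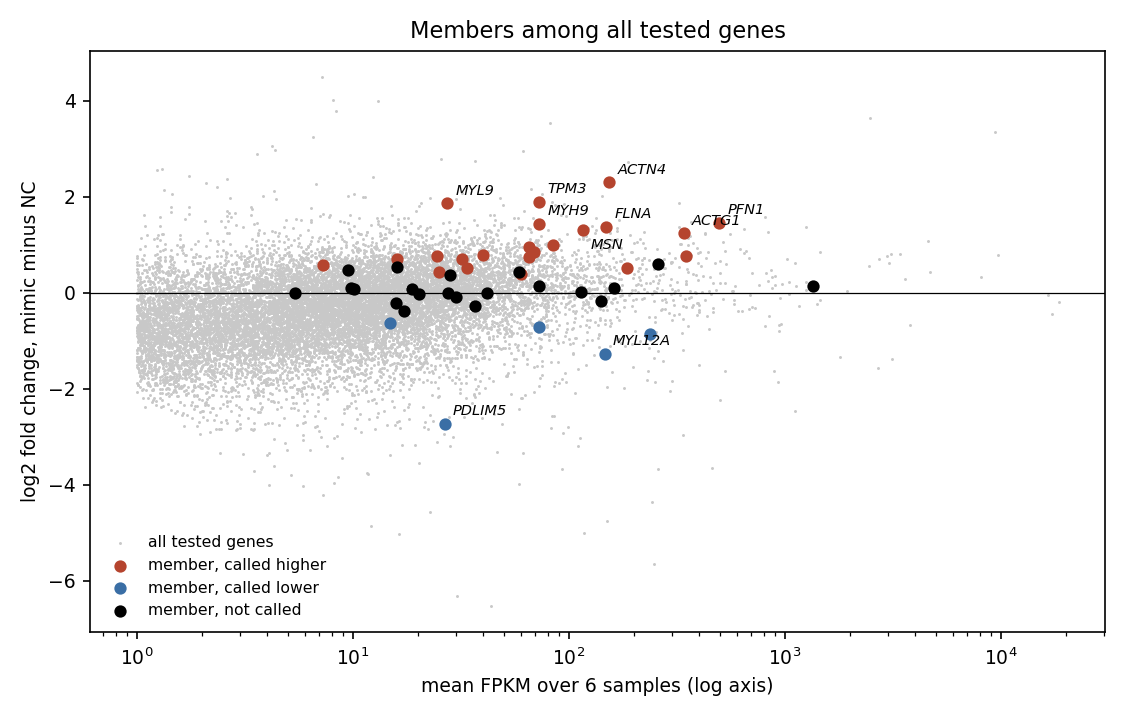
Log2 fold change (mimic minus NC, vertical) against mean FPKM over 6 samples (horizontal, log axis) for 14439 tested genes in grey and the 48 tested members as large points, red where called higher, blue where called lower and black where not called. The members lie at 5.43 FPKM and above, with ACTN4 at the top and PDLIM5 at the bottom.

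Changes of at least 2-fold were called in 10 members, 8 higher (ACTN4, TPM3, MYL9, PFN1, MYH9, FLNA, MSN and ACTG1) and 2 lower (PDLIM5 and MYL12A). Over all genes tested 2.47% were called at least 2-fold higher and 18.5% at least 2-fold lower. The groups did not overlap in any of the 10. Over all tested members the mimic samples lay wholly above the NC samples in 22 (45.8%, against 16.2% of all genes) and wholly below them in 8 (16.7%, against 44.3%). The 51 members took up 1.49%, 1.29% and 1.19% of summed FPKM in mimic samples and 0.985%, 1.04% and 0.877% in NC samples.

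**Figure D2:**
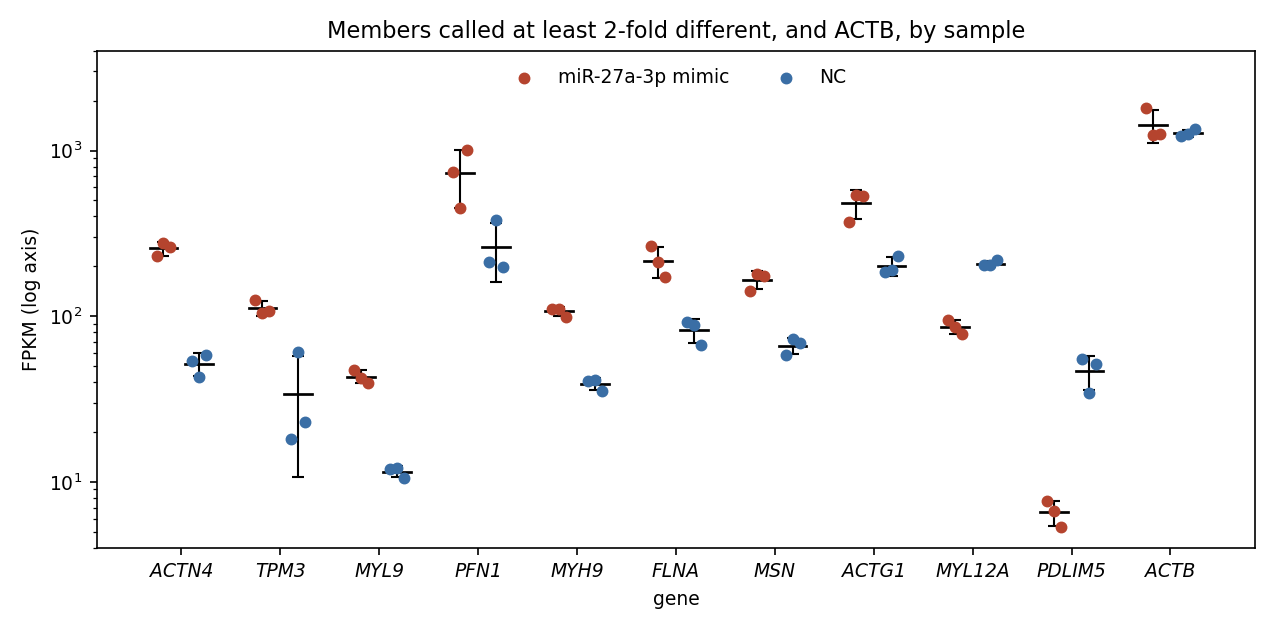
FPKM (log axis) in each of 3 mimic samples (red) and 3 NC samples (blue) for the 10 members called at least 2-fold different and for ACTB, with group means (lines) and SDs (bars). PDLIM5 and MYL12A are the ones whose mimic samples lie below the NC samples, and ACTB overlaps.

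The cytoplasmic actins differed from each other. ACTB, which encodes beta-actin and was the most abundant member, had 1796, 1248 and 1252 FPKM in mimic samples, against 1221, 1250 and 1345 FPKM in NC samples. Only mimic sample 1 stood above the NC range, and the difference did not pass the test (log2 fold change 0.15, SE 0.20, adjusted p = 0.566), although median-of-ratios scaling over every gene above 0 called it higher (0.65, adjusted p = 0.0193). ACTG1, which encodes gamma-actin from chromosome 17 (81509971 to 81523847, hg38, minus strand), had 370.9, 539.8 and 534.9 FPKM in mimic samples, against 184.3, 189.1 and 230.7 FPKM in NC samples. All mimic samples were above all NC samples, and ACTG1 rose (1.24, SE 0.19, adjusted p = 0.00109).

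The log2 ratio of ACTB to ACTG1, which does not depend on the library's scale, averaged 1.57 ± 0.61 in mimic samples and 2.66 ± 0.11 in NC samples (SD, n = 3 each). The ratios of 16 pairs of related members were compared in this way by an exact two-sided permutation test, where 3 samples against 3 cannot give a p under 0.1. The groups did not overlap in 11 of the 16, each at that smallest p (Benjamini-Hochberg adjusted p = 0.145 over the 16 pairs), so none could pass a threshold of 0.05. EZR and MSN were both set against RDX, so the pairs are not all separate. Of all single genes tested 16.2% lay wholly higher and 44.3% wholly lower in mimic samples, so groups that do not overlap are common in these data. The 21 pseudogenes of ACTG1 moved the other way from it, summing to 2.79, 2.35 and 2.55 FPKM in mimic and 9.36, 8.59 and 10.47 FPKM in NC samples. Their sum was at most 5.08% of the ACTG1 value in any sample.

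ACTA2, the smooth muscle actin also made by contractile fibroblasts, had 13.14, 12.38 and 9.42 FPKM in mimic samples, against 18.07, 20.88 and 15.59 FPKM in NC samples. It fell (-0.62, SE 0.17, adjusted p = 0.0159) with no overlap. The call was lost under median-of-ratios scaling (adjusted p = 0.411, or 0.0818 over genes averaging 1 FPKM), after GC and length correction and without NC sample 2. FAS and STAMBPL1 lie opposite parts of ACTA2, and no source used here says whether counting used strand. FAS had 8.65, 7.68 and 5.24 FPKM in mimic samples and 20.2, 29 and 10.3 FPKM in NC samples, and reads from where they overlap cannot be told apart.

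All 3 crosslinkers tested rose, against 12.0% of all genes called higher and 26.4% of genes at or above the members' median level. ACTN4, a non-muscle alpha-actinin that bundles filaments (chromosome 19, 38647649 to 38731583, hg38, plus strand), had 230.1, 278.3 and 262.6 FPKM in mimic samples, against 53.54, 42.69 and 58.68 FPKM in NC samples. Its groups were the farthest apart of those that rose, with a log2 fold change of 2.31 (SE 0.16, adjusted p = 4.27e-05) and a range of 2.18 to 2.81 over 19 alternative settings. ACTN1, its paralog in focal adhesions and stress fibres, had 85.79, 89.34 and 85.61 FPKM in mimic samples, against 41.69, 49.97 and 42.85 FPKM in NC samples, and rose by less (0.95, SE 0.13, adjusted p = 0.000552).

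ACTN4 made up 72.8%, 75.7% and 75.4% of the summed alpha-actinin FPKM in mimic samples, against 56.2%, 46.1% and 57.8% in NC samples. The log2 ratio of ACTN4 to ACTN1 was 1.55 ± 0.12 in mimic samples and 0.19 ± 0.37 in NC samples (SD, n = 3 each), and the groups did not overlap. FLNA, which encodes filamin A, the crosslinker of orthogonal networks (chromosome X, 154348524 to 154374638, minus strand), had 264.8, 213.1 and 171.3 FPKM in mimic samples, against 91.89, 88.54 and 67.12 FPKM in NC samples. It rose (1.38, SE 0.20, adjusted p = 0.000791), with the lowest value of each group in sample 3.

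Among tropomyosins, which coat filaments and gate the access of myosin and cofilin, TPM1 and TPM3 rose, TPM4 fell and TPM2 was not called. TPM3 had 125.2, 103.9 and 106.9 FPKM in mimic samples, against 18.25, 60.98 and 23.03 FPKM in NC samples. NC sample 2 stood well above the other NC samples, and TPM3 rose with a wide error (1.90, SE 0.41, adjusted p = 0.00643). The call was lost without sample 3 of both groups (1.75, adjusted p = 0.0613), and the value ranged from 1.56 to 2.42 over the settings that left samples out. TPM3 has 9 pseudogenes, which summed to 4.786, 4.932 and 4.675 FPKM in mimic samples and 5.717, 5.43 and 4.86 FPKM in NC samples. These sums amounted to 3.82% to 4.75% of the gene's value in mimic samples and to 8.91% to 31.3% in NC samples. How reads were split between TPM3 and its pseudogenes is uncertain.

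TPM4 had 190.0, 166.1 and 150.1 FPKM in mimic samples, against 284.8, 282.3 and 355.4 FPKM in NC samples. It fell (-0.86, SE 0.16, adjusted p = 0.0028) with no overlap, but median-of-ratios scaling over every gene above 0 left it uncalled (adjusted p = 0.0795). TPM1 had 39.45, 26.95 and 26.95 FPKM in mimic samples, against 15.02, 22.27 and 16.56 FPKM in NC samples, and rose (0.77, SE 0.20, adjusted p = 0.0134). The call on TPM1 was lost without NC sample 1 and without sample 3 of both groups (0.82, adjusted p = 0.06). TPM2 had 175.7, 165.4 and 161.8 FPKM in mimic samples, against 159.5, 150.7 and 160.4 FPKM in NC samples, a difference that did not pass the test (0.10, SE 0.13, adjusted p = 0.56), although both median-of-ratios scalings called it higher.

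The make-up of the tropomyosin family therefore differed while its sum did not part the groups. The summed FPKM of the 4 genes was 479.5 ± 44.8 in mimic samples and 516.4 ± 38.9 in NC samples (exact two-sided permutation p = 0.3, n = 3 each). TPM4 held 35.1% ± 1.27 of it in mimic samples and 59.4% ± 4.66 in NC samples, and TPM3 held 23.4% ± 0.782 in mimic samples and 6.59% ± 4.52 in NC samples (SD, n = 3 each). Both shares reached the smallest p that the exact permutation test can give, 0.1.

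**Figure D3:**
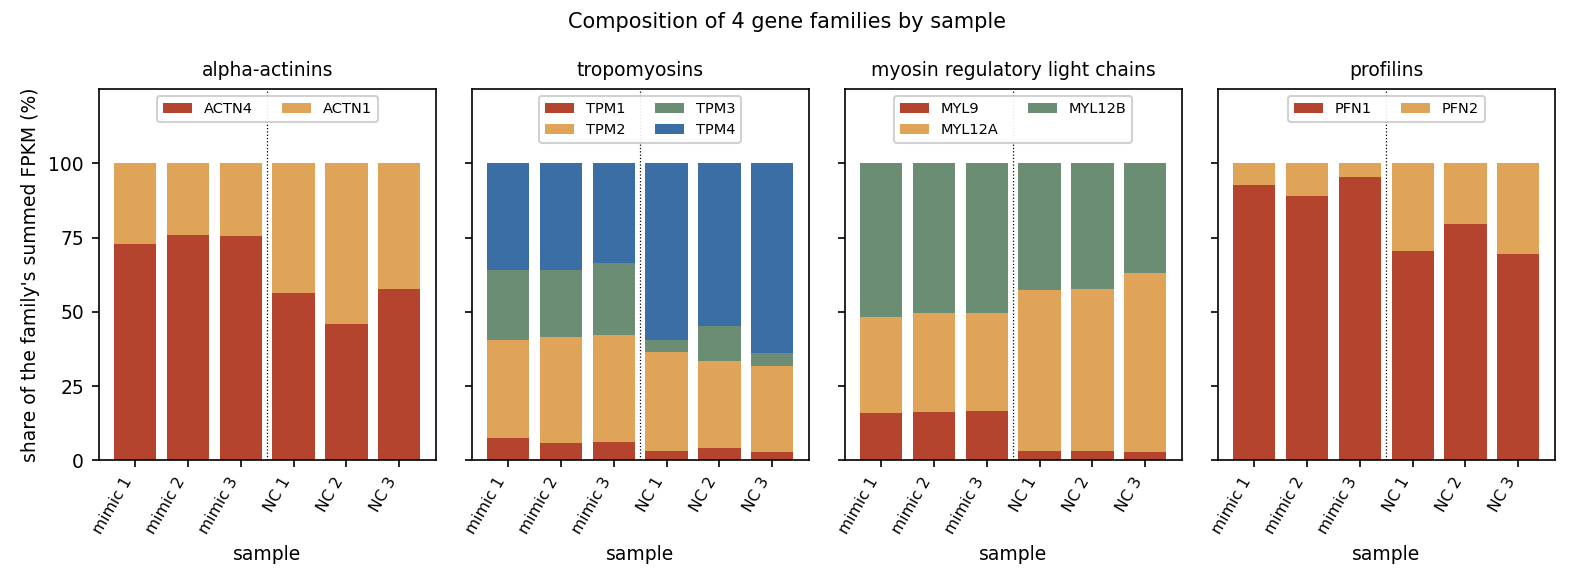
Share of the summed FPKM of 4 gene families (vertical, percent) taken by each gene in the 3 mimic samples (left of the dotted line) and the 3 NC samples (right). ACTN4, TPM3, MYL9 and PFN1 hold larger shares in every mimic sample than in any NC sample, and TPM4, MYL12A and PFN2 smaller ones.

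Non-muscle myosin II is built of a pair of heavy chains, each with an essential and a regulatory light chain. MYH9, the heavy chain of myosin IIA (chromosome 22, 36281281 to 36388018, minus strand), had 110.2, 110.8 and 99.41 FPKM in mimic samples, against 40.48, 41.37 and 35.26 FPKM in NC samples. It rose (1.44, SE 0.13, adjusted p = 9.87e-05) with tight replicates. MYH10, the heavy chain of myosin IIB, had 12.06, 12.10 and 7.09 FPKM in mimic samples, against 10.55, 12.39 and 6.60 FPKM in NC samples. The groups overlapped with sample 3 the lowest of both (0.08, SE 0.28, adjusted p = 0.823). NDEL1 overlaps MYH10 on the opposite strand, at 21.4, 24.3 and 22.1 FPKM in mimic samples and 37.4, 29.1 and 24.3 FPKM in NC samples. The reads of MYH10 itself, and the share below, are therefore uncertain. MYH9 made up 91.2% ± 1.85 of the summed FPKM of both heavy chains in mimic samples and 80.2% ± 3.71 in NC samples (SD, n = 3 each), with no overlap.

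The regulatory light chains moved apart. MYL9 (chromosome 20, 36541484 to 36551447, plus strand) had 47.34, 42.53 and 39.76 FPKM in mimic samples, against 11.90, 12.18 and 10.53 FPKM in NC samples, and rose (1.86, SE 0.13, adjusted p = 4.35e-05). MYL12A (chromosome 18, 3247481 to 3256236, plus strand) had 95.4, 85.74 and 77.98 FPKM in mimic samples, against 203.5, 202.4 and 217.2 FPKM in NC samples, and fell (-1.27, SE 0.14, adjusted p = 0.000202). Both calls held in all 19 alternative settings, but MYL12A, at -1.35 to -0.69 over them, was less than 2-fold lower under both median-of-ratios scalings and with GC and length correction. MYL12B, its neighbour on chromosome 18 with a nearly identical product, had 152.2, 130.5 and 119.3 FPKM in mimic samples, against 159.8, 156.4 and 133.8 FPKM in NC samples and was not called (-0.17, SE 0.15, adjusted p = 0.391). Its sign turned under median-of-ratios scaling over every gene above 0 (0.33, adjusted p = 0.0428) and with GC and length correction (0.35, adjusted p = 0.024), and both called it higher.

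MYL9 held 16.4% ± 0.362 of the summed FPKM of the 3 regulatory light chains in mimic samples and 3.12% ± 0.19 in NC samples, MYL12A 32.8% ± 0.403 in mimic samples and 56.3% ± 3.29 in NC samples, and MYL12B 50.8% ± 0.707 in mimic samples and 40.6% ± 3.11 in NC samples (SD, n = 3 each). The sum itself was 263.6 ± 29.3 FPKM in mimic samples and 369.2 ± 7.04 FPKM in NC samples. None of these 4 quantities overlapped between groups. MYL12A and MYL12B share most of their coding sequence, so the split of reads between them is uncertain.

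MYL6, the essential light chain, had 437.4, 283.1 and 223.2 FPKM in mimic samples, against 230.7, 218.3 and 157.8 FPKM in NC samples, with sample 1 the highest and sample 3 the lowest in both groups. It was not called (0.60, SE 0.26, adjusted p = 0.0903), but 8 of 19 alternatives called it higher, among them a fit that blocked on sample number (adjusted p = 0.0154). MYLK, the kinase that phosphorylates the regulatory light chains, had 4.66 to 6.04 FPKM in mimic samples and 3.82 to 6.63 FPKM in NC samples and was not called (adjusted p = 0.999).

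Of the calponin and transgelin group, TAGLN and TAGLN2 rose and CNN2 was not called. TAGLN2 averaged 219.3 ± 18.9 FPKM in mimic samples and 152.5 ± 7.07 FPKM in NC samples (SD, n = 3 each; 0.52, SE 0.14, limma adjusted p = 0.0131). TAGLN, an actin-binding protein typical of smooth muscle, was low, at 8.87 ± 1.34 FPKM in mimic samples and 5.77 ± 0.70 FPKM in NC samples (0.58, SE 0.16, limma adjusted p = 0.0152), and its call was lost without NC sample 2 and without sample 3 of both groups (adjusted p = 0.0822). PCSK7 overlaps TAGLN on the opposite strand, at 13.7, 11.7 and 11.7 FPKM in mimic samples and 13.2, 11.9 and 11.1 FPKM in NC samples, so the reads of TAGLN itself are uncertain. CNN2 stood at 27.6 ± 1.00 FPKM in mimic samples and 27.7 ± 1.99 FPKM in NC samples, and was called higher under median-of-ratios scaling over every gene above 0 alone (0.49, adjusted p = 0.0102).

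Among turnover and capping factors 3 of 8 rose and 1 fell, against 12.0% of all genes called higher and 39.6% lower. Over genes at or above the members' median level these shares were 26.4% and 17.6%. The counts are therefore not read as particular to these factors. PFN1, the profilin that loads monomer onto growing ends (chromosome 17, 4945652 to 4949061, minus strand), had 741.8, 448.3 and 1007 FPKM in mimic samples, against 211.6, 379.8 and 197.4 FPKM in NC samples. The samples of each group varied widely, with mimic sample 2 close above NC sample 2, and PFN1 rose (1.46, SE 0.35, adjusted p = 0.0095). Without sample 3 of both groups the call was lost (1.02, adjusted p = 0.0789). ENO3 overlaps PFN1 on the other strand, at 60.9, 47.7 and 52.9 FPKM in mimic samples and 96.8, 95.0 and 82.9 FPKM in NC samples, and the 10 PFN1 pseudogenes summed to 3.03 to 4.202 FPKM in mimic samples and 10.52 to 15.1 FPKM in NC samples, so both were lower in mimic samples.

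PFN2, the paralog best known from neurons, had 59.39, 55.86 and 49.44 FPKM in mimic samples, against 88.21, 96.56 and 86.52 FPKM in NC samples, and fell (-0.72, SE 0.13, adjusted p = 0.00251). The call was lost under median-of-ratios scaling over every gene above 0 (adjusted p = 0.113). PFN1 held 92.3% ± 3.21 of summed profilin FPKM in mimic samples and 73.3% ± 5.61 in NC samples (SD, n = 3 each), with no overlap.

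CFL1, which encodes the cofilin that severs aged filaments, had 270.1, 526.1 and 541.2 FPKM in mimic samples, against 290.4, 220.7 and 247.3 FPKM in NC samples. Mimic sample 1 lay within the NC range, the call was marginal (0.76, SE 0.28, adjusted p = 0.0477) and 13 of 19 alternatives lost it, among them the one without sample 3 of both groups (0.57, adjusted p = 0.238). CAPZB, the beta subunit of the capping protein, had 103.0, 112.8 and 121.9 FPKM in mimic samples, against 52.13, 54.72 and 62.1 FPKM in NC samples, and rose (0.99, SE 0.14, adjusted p = 0.000591). CAPZA1, which encodes an alpha subunit of that heterodimer, had 51.14, 23.78 and 50.83 FPKM in mimic samples, against 31.51, 60.36 and 32.67 FPKM in NC samples, and was not called (adjusted p = 0.997).

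NC sample 2 stood apart from the other NC samples in several of these genes. It was the highest of its group for PFN1, TPM3, CFL2 and CAPZA1. CFL2, the muscle-type cofilin, had 15.21, 11.94 and 28.84 FPKM in mimic samples, against 11.48, 33.69 and 11.54 FPKM in NC samples, and was not called. The capping and severing genes CAPG and GSN were not called either, although 5 of 19 alternatives called CAPG higher. GSN, which encodes gelsolin, averaged 15.0 ± 2.004 FPKM in mimic samples and 19.7 ± 1.91 FPKM in NC samples (SD, n = 3 each; -0.39, SE 0.15, limma adjusted p = 0.0568). GSN was called lower in the blocked fit (adjusted p = 0.036), and its sign turned under median-of-ratios scaling over every gene above 0 (0.10).

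The largest change of all members was in an adhesion gene. PDLIM5, which encodes a PDZ and LIM domain protein that binds alpha-actinin at stress fibres and Z-discs (chromosome 4, 94451857 to 94668227, hg38, plus strand), had 7.62, 6.71 and 5.32 FPKM in mimic samples, against 54.82, 34.52 and 51.14 FPKM in NC samples. It fell (-2.73, SE 0.21, adjusted p = 5.60e-05), with a range of -2.94 to -2.22 over 19 alternatives. Its 3' UTR, of 4160 bases, held the single 7mer-A1 match printed above. PDLIM7, a relative that was not called, had 33.59, 32.65 and 33.54 FPKM in mimic samples, against 42.45, 40.27 and 38.21 FPKM in NC samples (-0.27, SE 0.12, adjusted p = 0.0853). The log2 ratio of PDLIM7 to PDLIM5 was 2.27 ± 0.25 in mimic samples and -0.19 ± 0.35 in NC samples (SD, n = 3 each).

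Of the other adhesion proteins ZYX, TLN1 and VASP rose. ZYX, which encodes zyxin, a protein recruited to strained filaments, averaged 89.4 ± 4.62 FPKM in mimic samples and 49.7 ± 5.48 FPKM in NC samples (SD, n = 3 each; 0.84, SE 0.14, limma adjusted p = 0.00126). TLN1, which encodes the integrin activator talin, averaged 50.6 ± 4.501 FPKM in mimic samples and 29.4 ± 6.03 FPKM in NC samples (0.79, SE 0.17, limma adjusted p = 0.00561). On the opposite strand CREB3 overlaps TLN1, with 29.2, 22.3 and 17.4 FPKM in mimic samples and 16.0, 17.3 and 14.4 FPKM in NC samples, and its part in the TLN1 value was not tested. VASP, which elongates filaments, rose by less (0.44, SE 0.13, adjusted p = 0.0237), and 4 of 19 alternatives lost the call, among them the one without sample 3 of both groups (0.41, adjusted p = 0.0756). VCL, which encodes vinculin, had 33.39, 42.6 and 15.0 FPKM in mimic samples, against 29.16, 32.57 and 27.46 FPKM in NC samples, so mimic sample 3 alone was low (adjusted p = 0.841). ENAH and LIMA1 were not called (adjusted p = 0.127 and 0.169), but each was called higher in 5 of 19 alternatives, with log2 fold changes of 0.31 to 1.10 for ENAH and 0.17 to 0.95 for LIMA1 over all of them.

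MSN and EZR of the ERM linkers rose and RDX did not pass the test. MSN, which encodes moesin (chromosome X, 65588377 to 65741931, plus strand), had 141.9, 180.0 and 175.8 FPKM in mimic samples, against 58.36, 72.41 and 68.52 FPKM in NC samples (1.31, SE 0.16, adjusted p = 0.0003). EZR, which encodes ezrin, had 86.75, 87.05 and 74.93 FPKM in mimic samples, against 49.57, 51.29 and 46.19 FPKM in NC samples (0.75, SE 0.13, adjusted p = 0.00179). RDX, which encodes radixin, had 17.35, 23.4 and 19.61 FPKM in mimic samples, against 20.32, 22.07 and 18.78 FPKM in NC samples (-0.03, SE 0.15, adjusted p = 0.897), although median-of-ratios scaling over every gene above 0 called it higher. RDX held 7.45% ± 0.531 of the family's summed FPKM in mimic samples and 15.0% ± 0.894 in NC samples (SD, n = 3 each), with no overlap.

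The Arp2/3 complex, which nucleates branches, had 4 of its 8 genes higher and none lower, against 12.0% and 39.6% of all genes tested. Over genes at or above the members' median level these shares were 26.4% and 17.6%. ACTR3 and ACTR2 encode the actin-related subunits from which a branch starts. ACTR3 averaged 20.03 ± 2.79 FPKM in mimic samples and 12.0 ± 0.691 FPKM in NC samples (SD, n = 3 each; 0.71, SE 0.14, limma adjusted p = 0.0037), and ACTR2 40.0 ± 8.31 FPKM in mimic samples and 27.5 ± 3.37 FPKM in NC samples (0.52, SE 0.18, limma adjusted p = 0.0365). ARPC4 averaged 40.1 ± 8.63 FPKM in mimic samples and 23.96 ± 0.551 FPKM in NC samples (0.71, SE 0.17, limma adjusted p = 0.00794), and ARPC2 68.6 ± 1.55 FPKM in mimic samples and 52.3 ± 0.438 FPKM in NC samples (0.39, SE 0.12, limma adjusted p = 0.0225). On the opposite strand TADA3 overlaps ARPC4, and it had 51.1, 39.6 and 33.0 FPKM in mimic samples and 22.4, 30.3 and 27.2 FPKM in NC samples, so its part in the ARPC4 value was not tested. The other 4 were not called, with log2 fold changes of 0.43 for ARPC5, 0.14 for ARPC1A, 0.09 for ARPC1B and 0.01 for ARPC3. Of 19 alternatives 8 called ARPC5 higher, 4 ARPC1A, 1 ARPC1B and 3 ARPC3.

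The ARPC2 call was lost in 5 and the ACTR2 call in 7 of 19 alternatives, mostly those that left samples out. Without sample 3 of both groups the values were 0.41 for ARPC2 (adjusted p = 0.053) and 0.46 for ACTR2 (adjusted p = 0.137). Median-of-ratios scaling over genes averaging 1 FPKM called 6 of the 8 higher and over every gene above 0 all 8, with none lower in either. Of all genes these scalings called 27.2% and 35.6% higher. Levels of the subunits, which are per length in FPKM, ran from 10.2 FPKM for ARPC1B to 114.4 FPKM for ARPC3 in mimic samples and from 9.46 FPKM for ARPC1B to 113.4 FPKM for ARPC3 in NC samples.

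SRF itself had 14.10, 15.91 and 14.30 FPKM in mimic samples, against 16.25, 16.12 and 19.01 FPKM in NC samples. The mimic samples lay just below the NC samples, but the difference did not pass the test (-0.21, SE 0.13, adjusted p = 0.221), and its sign turned under median-of-ratios scaling (0.28, or 0.11 over genes averaging 1 FPKM).

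**Figure D4:**
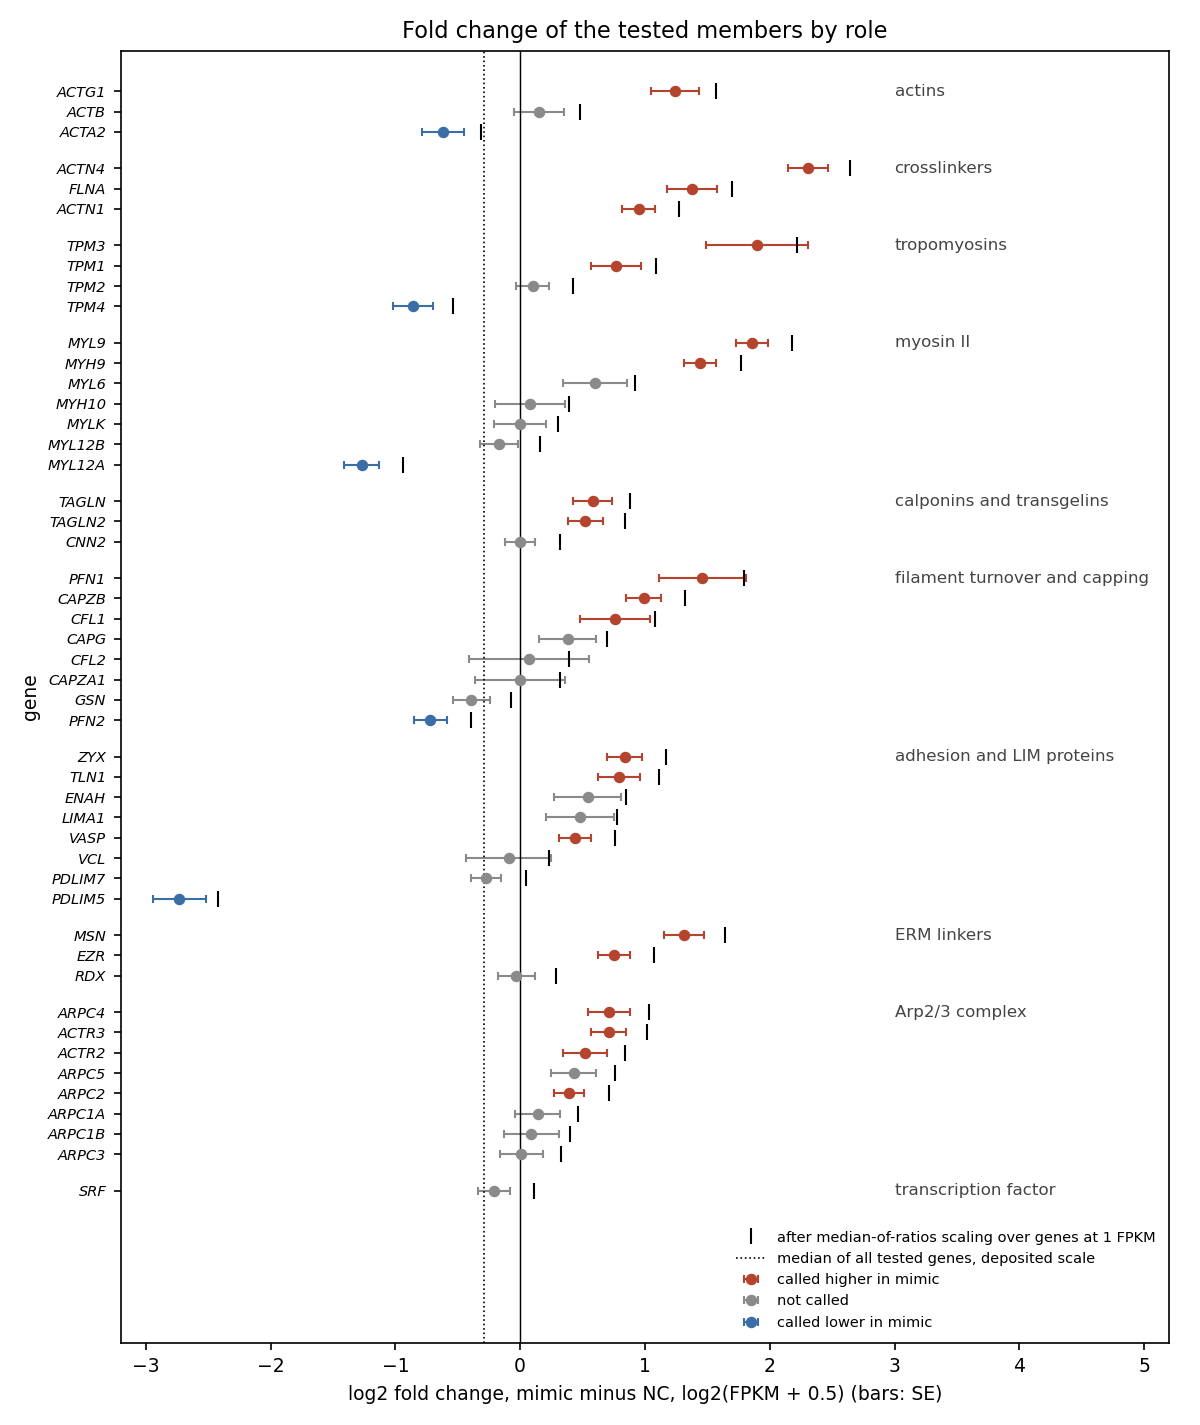
Log2 fold change (mimic minus NC, on log2(FPKM + 0.5), horizontal) with its SE for the 48 tested members, grouped by role and ordered within each role, red where called higher, blue where called lower and grey where not called. Black ticks give the value after median-of-ratios scaling over genes at 1 FPKM, which lies to the right of the deposited value in each gene, and the dotted line is the median of all tested genes, -0.29.

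Other genes of the actin pathway were read from 5 further lists, also chosen with earlier results of these data known. Of their 99 genes 92 were tested. Of these 26 rose and 14 fell, with a median log2 fold change of 0.04, against 12.0% of all genes called higher and 39.6% lower. After median-of-ratios scaling over genes averaging 1 FPKM 45 were higher and 7 lower, and over every gene above 0 these were 56 and 4. Of all genes these scalings called 27.2% and 35.6% higher and 26.9% and 20.9% lower. Of 29 tested actin-binding proteins 10 rose and 2 fell, and of 17 focal adhesion adaptors 7 rose and 1 fell. Formins and Arp2/3 activators had 5 of 20 higher and 4 lower, and SRF cofactors 1 of 6 higher and 2 lower.

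FSCN1, which encodes fascin, the bundler of filopodial filaments, averaged 238.8 ± 18.4 FPKM in mimic samples and 96.8 ± 3.69 FPKM in NC samples (SD, n = 3 each; 1.3, SE 0.13, limma adjusted p = 0.000163). MARCKS, a membrane protein that crosslinks actin, rose (1.15, SE 0.14, adjusted p = 0.00035), and ADD3, an adducin that links spectrin to actin, fell (-1.83, SE 0.15, adjusted p = 6.87e-05). Of the adaptors PARVA, which encodes a parvin of the integrin-linked kinase complex, averaged 10.9 ± 1.19 FPKM in mimic samples and 3.30 ± 0.606 FPKM in NC samples (1.59, SE 0.16, limma adjusted p = 0.000156). PXN, which encodes paxillin, rose (0.68, SE 0.13, adjusted p = 0.0031), and TNS1, a tensin, fell (-0.78, SE 0.16, adjusted p = 0.00448). The call on TNS1 was lost under median-of-ratios scaling over every gene above 0, where no adaptor was called lower.

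Among the regulators of branching CTTN, which encodes the branch stabiliser cortactin, averaged 54.2 ± 3.10 FPKM in mimic samples and 107.5 ± 10.1 FPKM in NC samples (SD, n = 3 each; -0.98, SE 0.13, limma adjusted p = 0.00054). Of the WAVE complex WASF1 rose (0.96, SE 0.20, adjusted p = 0.00437) and NCKAP1 fell (-0.73, SE 0.15, adjusted p = 0.00428). Under median-of-ratios scaling over every gene above 0 only 1 of the formins and Arp2/3 activators was called lower. CTTN and NCKAP1 therefore did not both keep the call there.

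MRTFA, the actin-sensing coactivator of SRF, averaged 16.6 ± 1.52 FPKM in mimic samples and 9.60 ± 1.32 FPKM in NC samples (SD, n = 3 each; 0.77, SE 0.15, limma adjusted p = 0.00314). ELK4, a ternary complex factor that also binds SRF, averaged 6.69 ± 0.984 FPKM in mimic samples and 15.2 ± 1.73 FPKM in NC samples (-1.13, SE 0.15, limma adjusted p = 0.000545), and SCAI, a repressor of MRTF-A, fell (-0.73, SE 0.16, adjusted p = 0.00656). Only 1 SRF cofactor was called lower under median-of-ratios scaling over every gene above 0, so ELK4 and SCAI did not both keep the call.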

How the data were processed

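The authors deposited 1 FPKM value per gene and sample, in 1 table of the series and 6 of single samples that held identical values. Per the submitters' processing notes, FastQC, HISAT2 and the hg38 build were used. The sources used here name no tool versions, no annotation release, no strand setting and no program that made FPKM. FPKM scales to transcript length and library total, so values are relative. Low values were checked for whole fragments against GENCODE 29 transcript lengths, and only 14.6% to 20.8% were whole multiples within 1%, so reads were not recovered and neither count tests nor counting intervals were used.

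Groups came from sample titles. Genes averaging at least 1 FPKM were tested with limma-trend (limma 3.58.1, R 4.3.3, robust moderation) on log2(FPKM + 0.5) over all 6 samples with no covariates, and p-values were Benjamini-Hochberg adjusted over 14439 genes. That scale understates changes of low genes. The fit was tested on simulated data. Ratios and shares of related genes used exact permutation tests. Alternatives changed the pseudocount, filter, scaling, moderation, GC and length correction, replicate block and samples left out. Median-of-ratios scaling over genes averaging 1 FPKM was added after seeing the data.

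Members and lists were chosen with earlier results of these data known. Values by sample are given for members called at least 2-fold different, the 5 most abundant, ACTB, ACTG1, SRF and genes of a described ratio or share, and also for ACTA2, CFL2, CAPZA1, CAPZB and VCL, chosen after their values were seen. Each further list described gives up to 3 called genes with the smallest p. Of the 5 lists, 1 is counted in the total and not reported here on its own. Symbols of these lists were matched through identifiers.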

Additional observations from a re-analysis of the deposited data

How the results depend on the processing

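Of the 10 members called at least 2-fold different, calls on ACTN4, MYL9, MYH9, FLNA, MSN, ACTG1, PDLIM5 and MYL12A held in all 19 alternatives. Among the smaller changes, calls on ACTN1, ACTR3, ARPC4, CAPZB, EZR, TAGLN2, TLN1 and ZYX also held in all. Counts of members higher moved by over 1.5 times under median-of-ratios scaling (35) and without sample 3 of both groups (14), and of members lower under that scaling (2). With single samples or sample 3 of both groups left out, members higher ranged from 14 to 22, members lower from 4 to 5 and 2-fold members from 9 to 12. Shares of all genes called with samples left out are not given here. The 10 called 2-fold members became 23 under median-of-ratios scaling, 18 under that scaling over genes averaging 1 FPKM, and 16 with GC and length correction, alone or with the replicate block. Of all genes 11.1%, 6.78% and 5.77% were then called 2-fold higher and 8.19%, 11% and 8.33% 2-fold lower under these 3 settings. The 26 other actin genes that rose became 56 and 45 under these scalings, 48 with GC and length correction (26.7% of all genes higher, 23.5% lower) and 45 with the block added, and ranged from 16 to 26 with samples left out. The 14 that fell became 4 and 7 under the scalings and 8 under quantile normalization. Of all genes 20.9%, 26.9% and 22.8% were then called lower, against 39.6% on the deposited scale. The 14 became 9 at a mean of 5 FPKM, 9 with totals that omit mitochondrial genes, and 6 with GC and length correction with or without the block. With samples left out they ranged from 8 to 17. Shares of all genes are not given here for the 5 FPKM filter, the mitochondrial setting or GC correction with the block. None of these shifts is read as particular to the actin genes. The cause was not tested, apart from alternatives that by construction use fewer genes or samples.

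Of the 48 members 15 changed sign in at least 1 alternative, 0 of them among the 27 called. Median-of-ratios scaling turned 8 (CAPZA1, CNN2, GSN, MYL12B, PDLIM7, RDX, SRF and VCL) and that over genes averaging 1 FPKM 7, all but GSN. Among the members and ratios followed singly, signs turned for SRF (0.28 and 0.11 under the scalings), for ACTB without mimic sample 1 (-0.02, and up to 0.24 without another single sample), for the ratio of ARPC1B to ARPC1A under quantile normalization (0.31), and for that of TAGLN to TAGLN2 with GC and length correction (-0.07, also with the block), without NC sample 2 (-0.04) and without mimic sample 3 (-0.01, and up to 0.17 without another single sample). The main values of these ratios were -0.05 and 0.06. Deviations from group means correlated at 0.177, -0.0467 and 0.223 between samples 1, 2 and 3 of the groups. Between samples of unlike number they correlated at -0.281 to 0.126. The same-number value was the highest for samples 1 and 3 and not for sample 2. Whether samples of the same number share a source was not tested. Pairing is not stated, so the main fit used no block. With the replicate block 23 members were higher and 6 lower, against 14.7% and 41.5% of all genes. Read depth was inferred and not given, so no limit of detection is given for CNN1, CNN3 or FLNC.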
